A study of Mus musculus with 6 samples.

Results

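The translation initiation and elongation factor genes of mouse AE9a leukemia cells were taken as every entry of both deposited expression tables whose symbol begins with Eif or Eef followed by a digit. The Eif4ebp and Eif2ak genes, which encode regulators, and the Y-linked Eif2s3y were left out. This gave 57 of the 21881 genes in each table. Of these, 4 (Eif2c1, Eif2c2, Eif2c3 and Eif2c4) are Argonaute genes listed under older symbols. They encode small-RNA-binding proteins of gene silencing and no initiation factor. The 53 other genes carry factor names, though some, such as Eef2k, Eef1e1 and Eif4enif1, encode regulators or related proteins. The words factor genes below cover all 57. The rule uses symbols alone and no measured value, but it was set with earlier results of these data known.

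Initiation factors bring a ribosome to the start codon of an mRNA. The factor eIF2 delivers the initiator tRNA and is recharged with GTP by eIF2B. The eIF4F complex, made of the cap-binding protein eIF4E, the scaffold eIF4G and the helicase eIF4A, prepares the mRNA, and eIF3 holds it to the small ribosomal subunit. The factor eIF5B then joins the large subunit, after which eEF1A brings in each charged tRNA and eEF2 moves the ribosome along. Leukemic blasts, like other dividing cells, make these mRNAs in large amounts, and MYC and mTOR signalling are known to govern their production and use.

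The cells are driven by AE9a, a truncated AML1-ETO fusion protein, and were labelled as strain C57/B6X129SV. All 6 samples carry Id1 alleles flanked by loxP sites (Id1fl/fl) and CreER, a recombinase that 4-hydroxytamoxifen (4-OHT) switches on. The labels form 3 groups of 2 samples: control, CBD at 15 µM for 16 h, and 4-OHT at 0.1 µM for 48 h. The series text names CBD as an Id1 inhibitor without spelling it out. No vehicle is named for the controls, no 4-OHT group without loxP sites is listed, and whether samples of 1 group were separate cultures is not stated. One table compares CBD with a control and the other compares 4-OHT with a control. Each table holds a single FPKM value per group (fragments relative to transcript length and to all mapped fragments), so the values below carry no SD and no n, and the sequencing depth behind them is unknown. The tables hold different control columns: control sample 1 is described with the CBD comparison and control sample 2 with the 4-OHT comparison. The number of libraries in each control column is not given. In each pair of values below the control of the same table comes first. The log2 ratio is that of treated over control FPKM with 0.1 added to each, which understates changes of genes near 0. The words rose and fell are used only where the authors' deposited table has q under 0.05.

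Id1, the gene both treatments address, fell with 4-OHT from 15.4 to 0.741 FPKM (log2 ratio −4.21; the authors' deposited table lists q as 0). With CBD it stood at 34.2 and 11.95 FPKM (−1.51, the authors' deposited table has q = 0.133). Of 12 blast and blood markers 11 are in the tables, and their summed level was 539 FPKM in the control and 377 with CBD, and 411 and 392 FPKM in the 4-OHT table, with Kit at 95.6 and Myb at 112 FPKM in the 4-OHT table's control. With CBD 0 of 9 tested rose and 2 fell, Myb from 107 to 65.5 FPKM and Runx1 from 92.6 to 47.4 FPKM. Of the 9, 4 stood above and 5 below their control, with a median log2 ratio of −0.18, or 0.32 over the 4-OHT table's control. The Runx1 value with CBD lies above the 38.0 FPKM of that other control. With 4-OHT 3 of 8 rose, Gata2, Runx1 and Lyl1, and 3 fell, Kit, Myb and Lmo2. Markers of neurons moved with the CBD column: of 12 tested, 10 rose and 0 fell, 0 were at 0 with CBD, and their summed level went from 38.7 to 254 FPKM. With 4-OHT 3 were tested and 1 rose, Nrgn. Of 9 astrocyte and oligodendrocyte markers 8 rose, and their sum went from 51.3 to 255 FPKM. Of 6 tested monocyte and macrophage markers 3 rose, with a sum of 1.303 in the control and 19.2 FPKM with CBD. Of 8 oocyte and germ cell markers 2 were tested with CBD and 0 rose. Among all tested genes 18.4% rose and 7.74% fell with CBD, and 27.2% rose and 16.9% fell with 4-OHT.

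Most of the 57 genes were abundant in all 4 columns. In the control of the CBD table, CBD, the control of the 4-OHT table and 4-OHT, 50, 50, 51 and 51 of them stood at 10 FPKM or more, and 32, 29, 33 and 33 at 100 FPKM or more. Their median was 139, 103, 164 and 171 FPKM in the same order. Levels reached 6775 FPKM for Eef1a1, the main eEF1A gene, with 4-OHT. FPKM is scaled to transcript length, so these levels can be set roughly beside each other between genes. CBD ratios still declined with transcript length, as given below. Ratios between genes of unlike length in the CBD column are not adjusted for that.

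**Figure D1:**
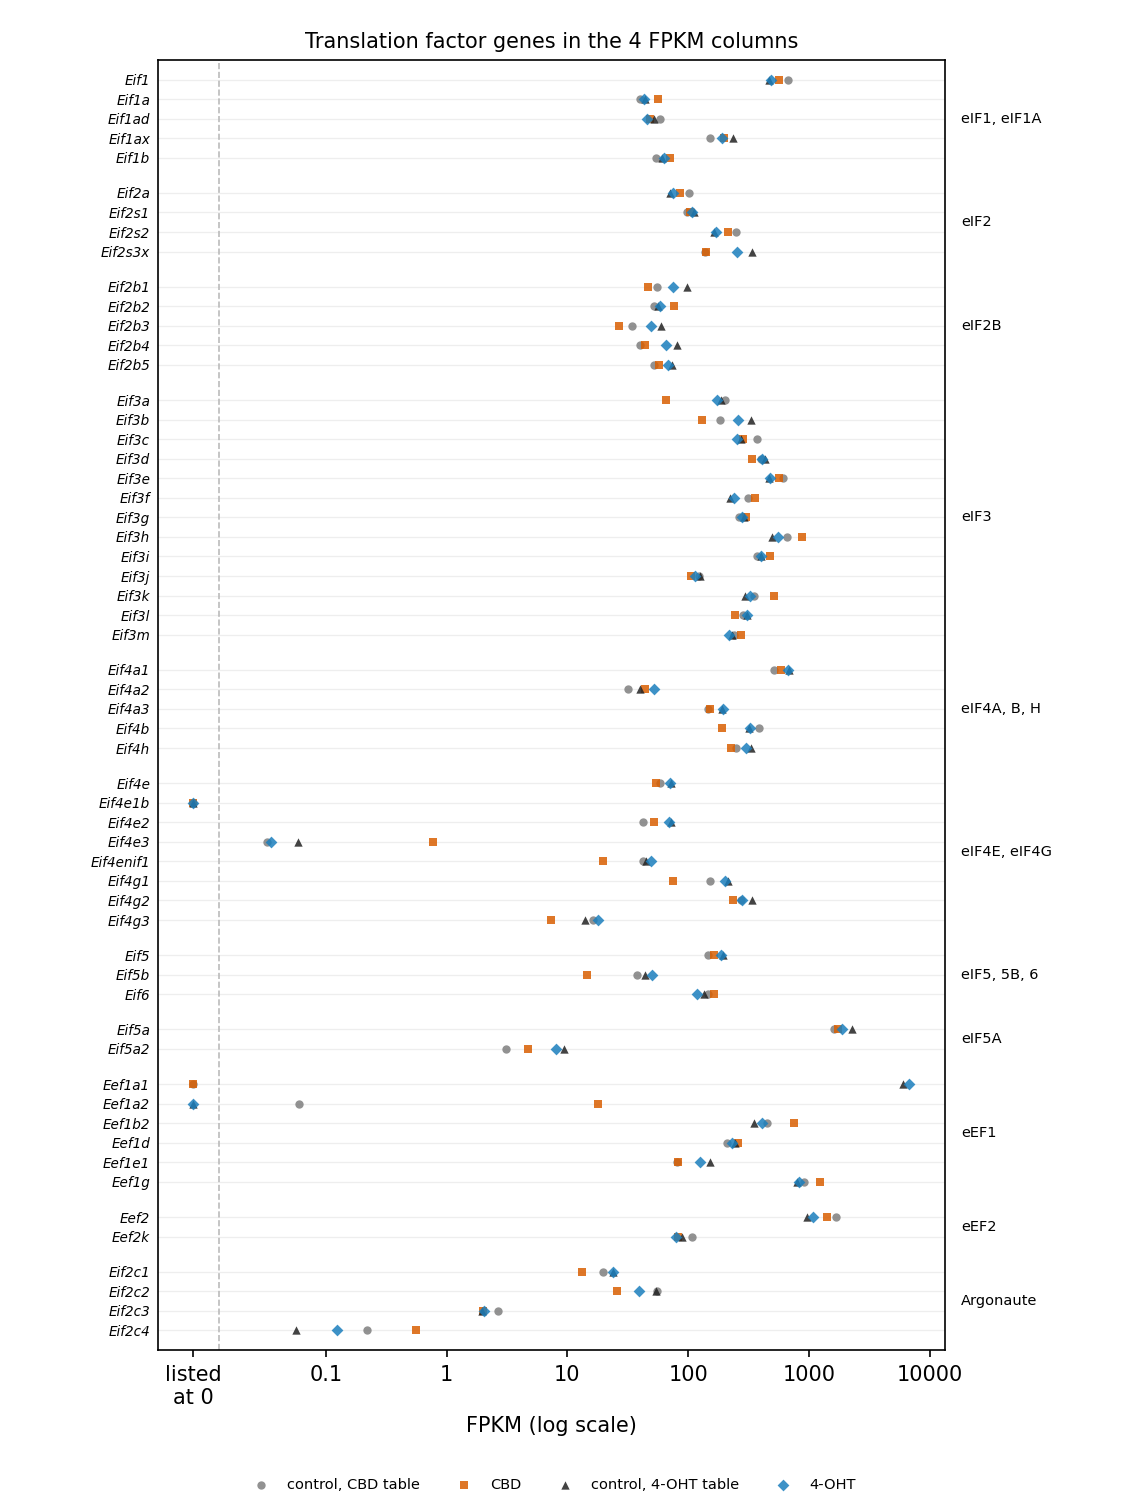
FPKM (log scale) of the 57 genes in the 4 columns, grouped by role; points left of the dashed line are listed at 0. At least 50 genes lie at 10 FPKM or more in every column, and Eif3a, Eif5b, Eif4g3 and Eif4enif1 show a CBD square left of the other 3 symbols.

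Not every gene has a usable value. Eef1a1 is marked in the CBD table as having too many fragments and is listed at 0 in both of its columns, where the 4-OHT table gives 6029.8 and 6775 FPKM, so its 0 is a failed estimate. Eif4e1b, an eIF4E relative known from oocytes, is listed at 0 in all 4 columns, and Eef1a2 is listed at 0 in both columns of the 4-OHT table. Eif4enif1 and Eif5a are marked as failed in the CBD test although they have FPKM values. Too little data for a test is given for Eif4e1b in both tables and for Eef1a2, Eif2c4 and Eif4e3 with 4-OHT. This left 53 of the 57 genes tested in each comparison.

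With CBD the fallers were few and large. Of 53 tested genes 6 fell (11.3%, where 7.74% of all 13751 tested genes fell), each by at least 2-fold: Eif3a, Eif5b, Eif4g3, Eif2c2, Eif4g1 and Eif4b. Another 3 rose (5.66%, where 18.4% of all tested genes rose): Eef1a2, Eif4e3 and Eif4e2. At 10 FPKM or more in each control column 6 of 48 tested factor genes fell (12.5%) and 1 rose (2.08%), where 14.9% of all 5922 tested genes at that level fell and 11.4% rose. The share that fell is thus above that of all tested genes and below that of genes at these levels. The median log2 ratio of the 53 was 0.03, against 0.29 for all tested genes. For the 48 at 10 FPKM or more in each control column it was −0.05, against 0.01 for all tested genes at that level. In all, 28 stood above and 25 below their control. In bulk RNA, fewer cells of a type and less RNA per cell cannot be told apart.

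With 4-OHT the changes were more numerous and small. Of 53 tested genes 15 fell (28.3%, where 16.9% of all 11232 tested genes fell) and 7 rose (13.2%, where 27.2% rose), and 0 of these 22 changed by 2-fold. At 10 FPKM or more in each control column 14 of 50 factor genes fell (28%) and 7 rose (14%), where 22.0% of all 6054 tested genes at that level fell and 25.9% rose. The median log2 ratio was −0.04, against 0.05 for all tested genes. For the 50 at 10 FPKM or more in each control column it was also −0.04, against 0.01 for all tested genes at that level. In this comparison 20 stood above and 33 below their control. Of the 22, 9 lay on the same side of the other table's control column as well: 4 of the 7 that rose and 5 of the 15 that fell. For all called genes these shares were 51.2% and 34.9%. With CBD, 2 of the 3 that rose and 6 of the 6 that fell lay on the same side of both control columns (98.5% and 93.3% of all called genes). Counts of smaller groups below are to be read beside the shares of all tested genes given above.

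**Figure D2:**
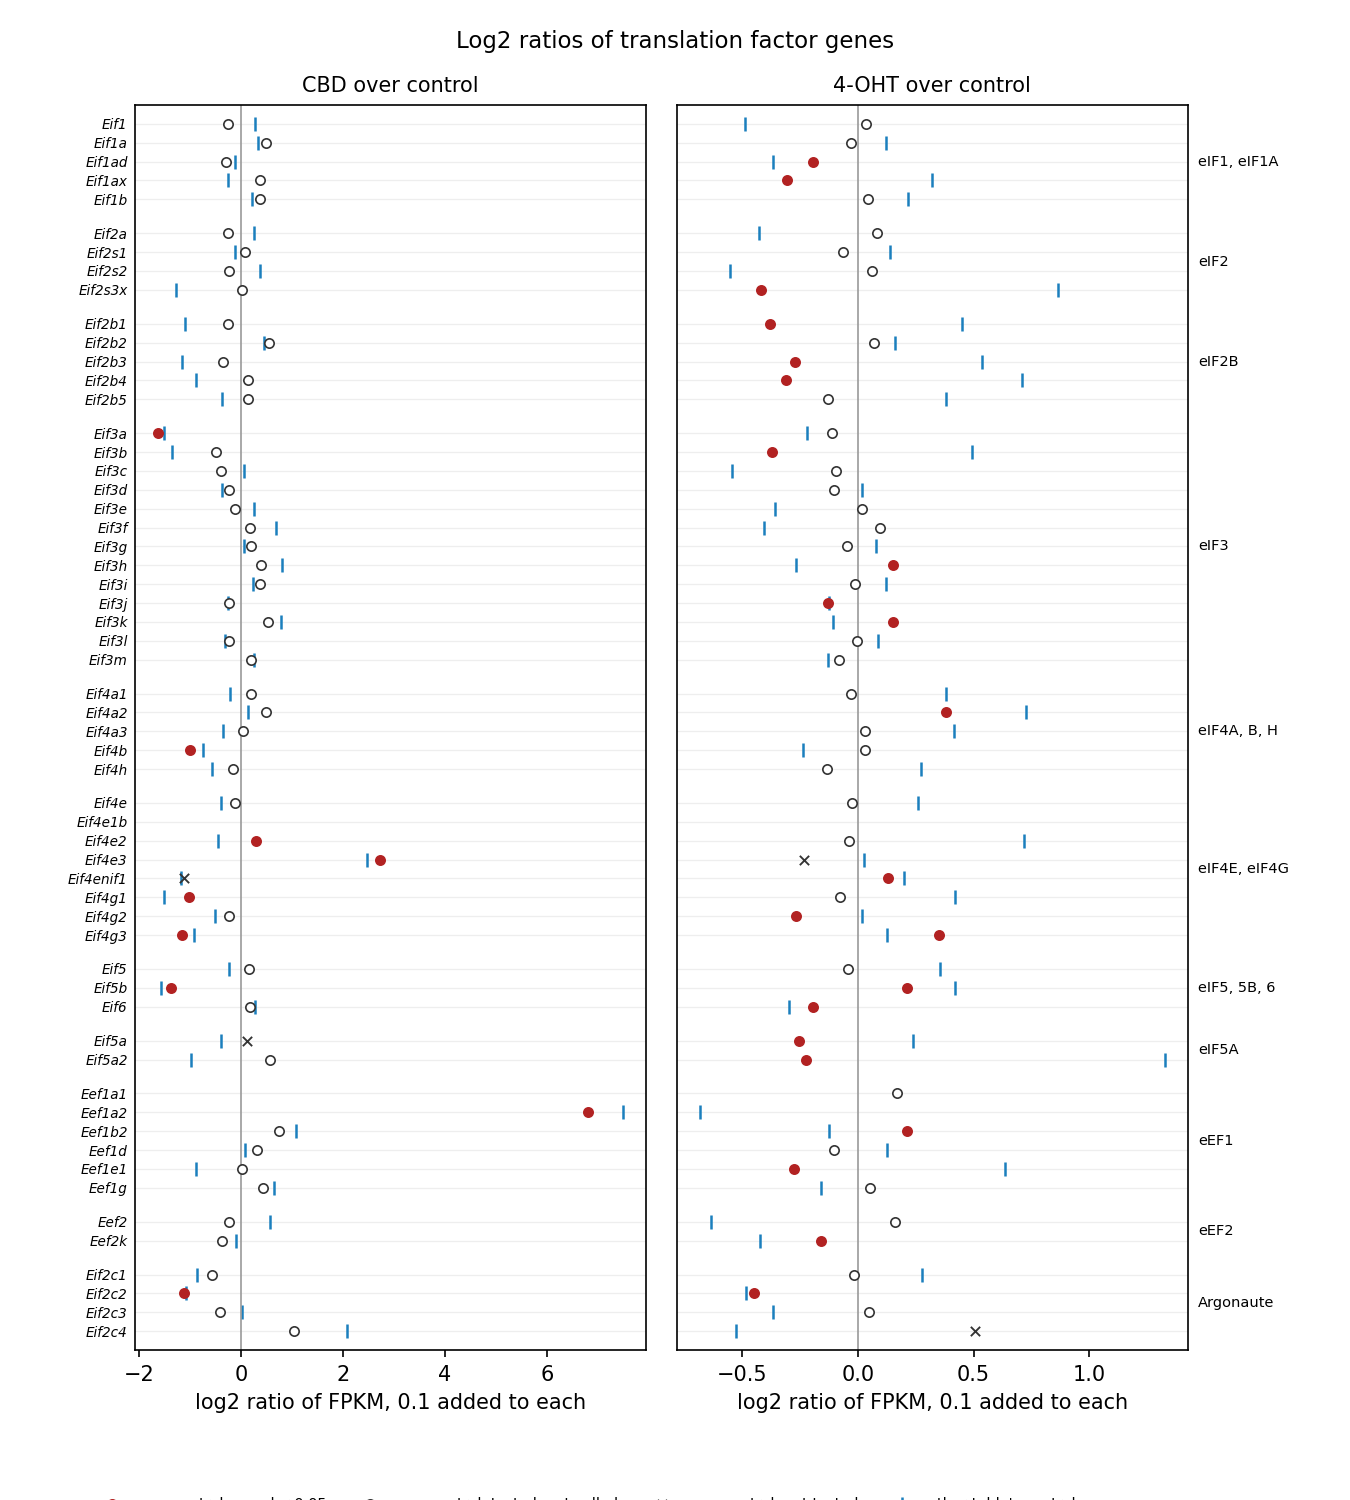
Log2 ratio of each gene over its own control (circles, red where the authors' deposited table has q under 0.05, crosses where not tested) and over the other table's control (blue bars), with CBD left and 4-OHT right on different axes. The 6 CBD fallers lie below −1 on their own control, while 4-OHT ratios stay between −0.45 and 0.38 for tested genes and the blue bar often lies across 0.

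Of the 6 genes that fell with CBD, 5 encode factors of mRNA recruitment and subunit joining. The promoters of these 5 are shown because they fell in the same comparison, beside that of Eef1a2, which rose most, and those of Eif4e and Eef2, which passed neither test. Each is the 100 bases before a transcription start, on the gene's strand, from the RefSeq promoter table of build GRCm38.p6 (with 2 starts in the table, the first is shown for Eif4g3 and the second for Eif4e). Capitals mark CACGTG, the E-box bound by MYC, and CAGCTG, an E-box bound by E proteins, the factors that Id1 keeps off DNA.
Eif3a, chr19:60790694-60790793 (-): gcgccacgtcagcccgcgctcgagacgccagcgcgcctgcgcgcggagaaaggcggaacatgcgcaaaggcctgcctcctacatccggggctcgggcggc
Eif4b, chr15:102073673-102073772 (+): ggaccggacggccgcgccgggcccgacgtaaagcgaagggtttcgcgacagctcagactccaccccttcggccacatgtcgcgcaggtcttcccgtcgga
Eif4g1, chr16:20672627-20672726 (+): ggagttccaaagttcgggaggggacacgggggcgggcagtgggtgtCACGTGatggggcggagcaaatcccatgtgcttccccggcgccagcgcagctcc
Eif4g3, chr4:137993355-137993454 (+): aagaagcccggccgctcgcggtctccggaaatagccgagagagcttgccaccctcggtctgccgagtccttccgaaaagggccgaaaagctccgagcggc
Eif5b, chr1:37997910-37998009 (+): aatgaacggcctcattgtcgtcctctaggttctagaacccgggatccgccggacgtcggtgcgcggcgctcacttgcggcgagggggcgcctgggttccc
Eef1a2, chr2:181157016-181157115 (-): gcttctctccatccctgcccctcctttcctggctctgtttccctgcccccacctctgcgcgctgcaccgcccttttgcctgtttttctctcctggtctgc
Eif4e, chr3:138527168-138527267 (+): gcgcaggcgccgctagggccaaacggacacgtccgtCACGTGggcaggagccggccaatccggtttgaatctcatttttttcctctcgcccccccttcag
Eef2, chr10:81176531-81176630 (+): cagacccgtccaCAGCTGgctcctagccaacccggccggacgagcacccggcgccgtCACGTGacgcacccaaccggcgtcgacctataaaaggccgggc

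In these windows Eif4g1 is the only one of the 5 fallers shown with CACGTG, starting 54 bases before the start. Eef2 holds CACGTG and CAGCTG, the first motif 88 bases before the start, and Eif4e holds CACGTG 64 bases before it. Over the whole 250 bases before each start and both strands, 60 windows of 45 of the 57 genes were in the table, set beside 32851 windows of all genes. CACGTG was present in 13 of the 60 (21.7%) and in 6.02% of all. The 11 genes with it were Eef2, Eef2k, Eif1b, Eif3f, Eif3k, Eif4a1, Eif4e, Eif4g1, Eif4h, Eif5a and Eif5a2. With CBD 1 of the 10 tested fell, Eif4g1, and 0 rose. With 4-OHT 3 fell, Eef2k, Eif5a and Eif5a2, and 1 rose, Eif3k. CAGCTG was present in 3 windows (5.0%, against 13.0% of all), those of Eef2, Eif4e and Eif5b, those of Eif4e and Eif5b outside the bases printed. CAGGTG, read on the other strand as CACCTG and likewise bound by E proteins, was present in 2 (3.33%, against 17.2%), those of Eef2k and Eif3c. The ETS motif CCGGAAGT was present in 5 (8.33%, against 2.88%), those of Eif3d, Eif3l, Eif4e2, Eif5a and Eif5a2. The CREB motif TGACGTCA was present in 0 windows (1.55% of all). No motif of this set contains another, and several windows of 1 gene overlap. The shares of all windows are over genes of any level, and none was taken over genes at levels like these. A match is a match of letters only.

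The eIF3 complex was abundant, and a single subunit fell with CBD. Eif3a, which encodes the largest scaffold subunit and lies on chromosome 19 from 60837019 to 60866596 in mm9, measured 203 and 65.8 FPKM in the CBD table, beside 188 and 174 FPKM in the 4-OHT table. The CBD column alone was low, so that Eif3a stood at 0.604, 0.205, 0.624 and 0.595 times the median of the other eIF3 subunits in the order control, CBD, control, 4-OHT. The subunits differ in transcript length (5125 nt for Eif3a and 774 nt for Eif3k), and the value of 0.205 is not adjusted for the decline with length. The fall with CBD had a log2 ratio of −1.62 (the authors' deposited table has q = 9.73e-09), and −1.51 over the other control column. With 4-OHT the ratio was −0.11, which did not pass.

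Of the 12 other eIF3 subunits none passed the CBD test, and 6 stood above and 6 below their control. Eif3b, the scaffold's RNA-binding partner, stood at 183 and 131 FPKM with CBD (−0.48, the authors' deposited table has q = 0.168). With 4-OHT it fell from 333 to 257 FPKM (−0.37, the authors' deposited table has q = 7.87e-09), and both of those values are above the 183 FPKM of the other control. Eif3h and Eif3k rose slightly with 4-OHT, from 498 to 552 and from 296 to 328 FPKM (the authors' deposited table has q = 0.0258 and 0.0250). In the CBD table Eif3h stood at 665 and 873 FPKM and Eif3k at 354 and 511 FPKM, the highest eIF3 ratios with CBD (0.39 and 0.53), but neither passed. The 4-OHT values of Eif3h and Eif3k lie below the other control column.

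Eif3j, a loosely bound subunit and the lowest of the complex in the controls, stood at 124 and 105 FPKM with CBD. With 4-OHT it fell from 125 to 114 FPKM (the authors' deposited table has q = 0.0481). A single Eif3j entry, on chromosome 2, is listed for the near-identical copies Eif3j1 and Eif3j2, so their reads could not be separated. The entry spans 89764 bases, against 25053 for the RefSeq gene, so reads of neighbours may be in it. The 8 remaining subunits passed neither test. Eif3c stood at 373 and 287 FPKM with CBD and 273 and 256 with 4-OHT, and Eif3d, a subunit that can bind the cap itself, at 401 and 339, and 437 and 407 FPKM. Eif3e had ratios near 0 (−0.11 and 0.02), with 607 and 561, and 469 and 474 FPKM. Eif3f stood at 316 and 358, and 223 and 239 FPKM, and Eif3g at 265 and 303, and 289.6 and 280.04 FPKM. In each of these 5 subunits the control columns lay further apart than 4-OHT and its control. Eif3i stood at 369 and 476, and 405 and 401 FPKM. Eif3l stood at 288 and 246, and 306 and 305 FPKM, the smallest 4-OHT ratio among genes at 10 FPKM or more in every column. Eif3m stood at 239 and 275, and 231 and 219 FPKM, and its entry spans 130704 bases, against 17372 for the RefSeq gene, so reads of neighbours may be in it.

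**Figure D3:**
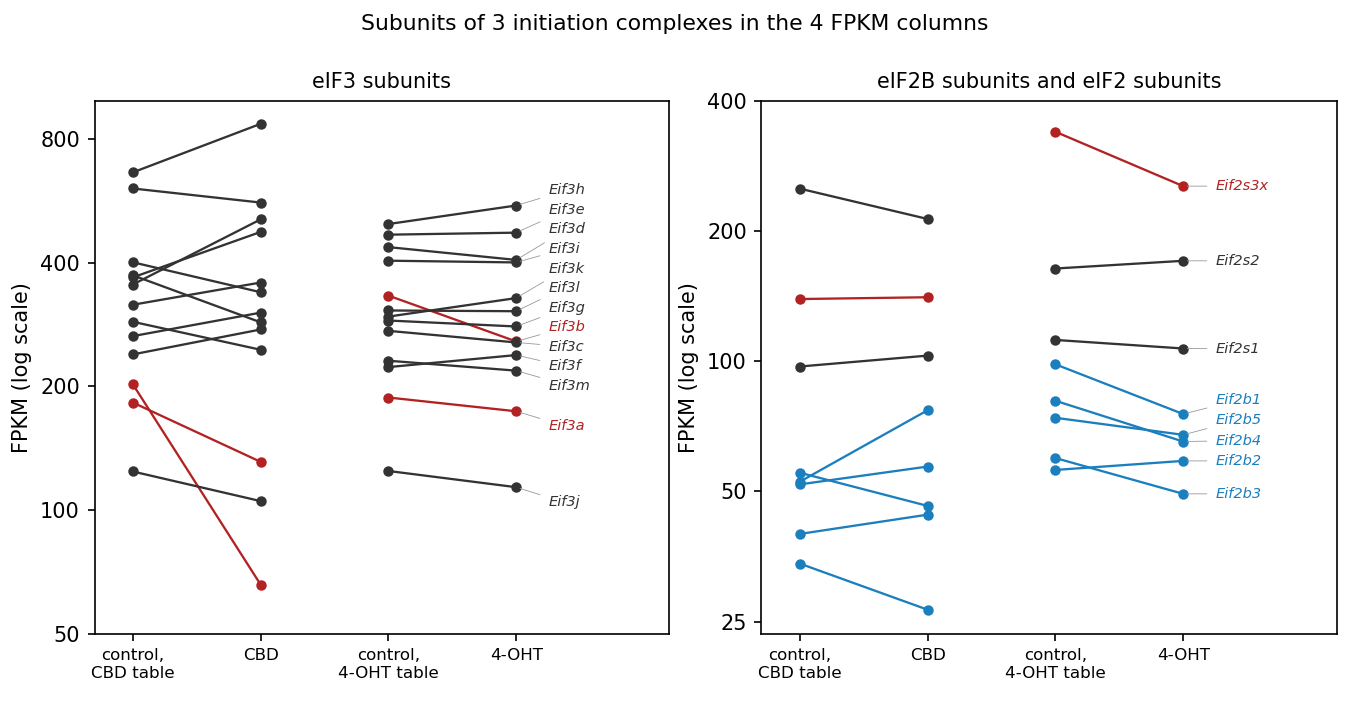
FPKM (log scale) of eIF3 subunits (left; Eif3a and Eif3b in red) and of eIF2B (blue) and eIF2 subunits (right; Eif2s3x in red) in the 4 columns, with a line from each control to its treated column. Eif3a leaves the eIF3 bundle in the CBD column only, and most eIF2B genes lie higher in both columns of the 4-OHT table than in the CBD table.

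Both eIF4G scaffold genes of eIF4F, Eif4g1 and Eif4g3, fell with CBD. Eif4g1, the main eIF4G, lies on chromosome 16 from 20672822 to 20692956 in mm9 and measured 151 and 75.01 FPKM in the CBD table, beside 213 and 202 FPKM in the 4-OHT table. The CBD value is the lowest of the 4, with a log2 ratio of −1.01 (the authors' deposited table has q = 4.93e-05). Eif4g3, a related scaffold on chromosome 4 from 137549385 to 137762386 in mm9, stood at 16.3 and 7.31 FPKM with CBD, and at 13.95 and 17.8 FPKM with 4-OHT. It fell with CBD (−1.15, the authors' deposited table has q = 0.00623) and rose with 4-OHT (0.35, the authors' deposited table has q = 9.49e-08). The 4-OHT value lies above both control columns and the CBD value below both.

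Eif4g2 encodes DAP5, a relative that lacks the eIF4E-binding region. It stood at 275 and 236 FPKM with CBD and did not pass (−0.22). With 4-OHT it fell from 335 to 278 FPKM (−0.27, the authors' deposited table has q = 0.000138), a value 0.02 log2 units above the other control. The ratio of Eif4g1 to Eif4g2 was 0.548 in the CBD table's control and 0.318 with CBD, and 0.635 and 0.725 in the 4-OHT table. The ratio of Eif4g1 to Eif4g3 was 9.24 and 10.3, and 15.3 and 11.3.

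Among the cap-binding genes tested with CBD, Eif4e, the common form, had the ratio nearest 0. It stood at 58.8 and 54.2 FPKM with CBD (−0.12) and at 71.6 and 70.4 FPKM with 4-OHT (−0.02), and passed neither test. Eif4e2 encodes 4EHP, a cap-binding repressor. It rose with CBD from 42.4 to 52.3 FPKM (0.30, the authors' deposited table has q = 0.0139), yet 52.3 lies below the 71.8 FPKM of the other control. With 4-OHT Eif4e2 stood at 71.8 and 69.9 FPKM. The ratio of Eif4e to Eif4e2 was 1.39 in the CBD table's control and 1.04, 0.996 and 1.01 in CBD and both columns of the 4-OHT table.

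Eif4e3, a further cap-binding gene, stood under 1 FPKM everywhere: 0.0328 and 0.778 FPKM with CBD, and 0.0592 and 0.0354 with 4-OHT. The rise with CBD had a log2 ratio of 2.72 (the authors' deposited table has q = 0.0183), which becomes 0.78 when 1 FPKM is added in place of 0.1. Eif4enif1 encodes 4E-T, which carries eIF4E into the nucleus and into mRNA decay bodies. It stood at 42.6 and 19.7 FPKM with CBD (−1.11), where its test is marked failed, and rose from 44.8 to 48.99 FPKM with 4-OHT (0.13, the authors' deposited table has q = 5.54e-05).

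None of the 3 helicase genes passed the CBD test, and their helper Eif4b fell. Eif4b, which stimulates eIF4A and is a target of S6 kinase, lies on chromosome 15 from 101904204 to 101927604 in mm9. It measured 384 and 191 FPKM in the CBD table, beside 319 and 326 FPKM in the 4-OHT table, so only CBD was low. The fall had a log2 ratio of −1.01 (the authors' deposited table has q = 0.0129), and of −0.74 over the other control. Eif4h, a smaller helper of the same kind, passed neither test, at 249 and 225 FPKM and at 331 and 302 FPKM.

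Eif4a1, the main helicase, stood at 517 and 593 FPKM with CBD and at 687 and 673 with 4-OHT, and passed neither test. Its close relative Eif4a2 stood at 31.5 and 44.1 FPKM with CBD (0.48, the authors' deposited table has q = 0.0821). Eif4a2 rose with 4-OHT from 40.03 to 52.2 FPKM, a log2 ratio of 0.38 for which the authors' deposited table lists q as 0, the largest tested rise with 4-OHT among the 57 genes. The Eif4a2 entry spans 20252 bases, against 6665 for the RefSeq gene, so it may take in reads of neighbours. Eif4a1 was 16.4 times as high as Eif4a2 in the control and 13.45 times with CBD, and 17.2 and 12.9 times in the 4-OHT table. Eif4a3, the helicase of the exon junction complex, was nearly level within each table, at 146 and 150.5 and at 191 and 195 FPKM.

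Of the subunit-joining factors Eif5b fell with CBD. Eif5b, the GTPase that joins the large subunit, stood at 37.6 and 14.6 FPKM with CBD and at 43.6 and 50.5 FPKM with 4-OHT. The CBD value is the lowest of the 4 columns and the 4-OHT value the highest. The gene fell with CBD (log2 ratio −1.37, the authors' deposited table has q = 1.66e-06) and rose with 4-OHT (0.21, the authors' deposited table has q = 0.000836). Its entry spans 131653 bases on chromosome 1, against 57570 for the RefSeq gene. Eif5, which triggers GTP hydrolysis on eIF2, passed neither test, at 147 and 164 and at 193 and 187 FPKM. Eif6 keeps the large subunit from joining too early. It stood at 145 and 163 FPKM with CBD and fell from 135 to 118 FPKM with 4-OHT (−0.20, the authors' deposited table has q = 0.00272), below both control columns.

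None of the 14 tested genes for start codon selection, eIF2 and eIF2B passed the CBD test. Among the eIF1 and eIF1A genes, which guide scanning, Eif1 stood at 677 and 569.9 FPKM with CBD and 471 and 482 with 4-OHT. Eif1b, its near copy, stood at 54.3 and 70.9, and 61.2 and 63.1 FPKM. The ratio of Eif1 to Eif1b was 12.5 in the CBD table's control and between 7.63 and 8.04 in the other 3 columns. Eif1ax, the X-linked eIF1A gene, stood at 153 and 198 FPKM with CBD and fell with 4-OHT from 236 to 191 FPKM (−0.31, the authors' deposited table has q = 9.23e-07), which is above the other control (0.32). Its partner Eif1a stood at 39.8 and 56.02, and 44.1 and 43.3 FPKM. Eif1ad, a gene with an eIF1A-like domain, stood at 58.97 and 48.1 FPKM with CBD and fell with 4-OHT from 52.4 to 45.7 FPKM (−0.20, the authors' deposited table has q = 0.00357), below both control columns.

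The subunits of eIF2 were unequal in level. Eif2s3x, the X-linked gene of the GTP-binding gamma subunit, stood at 139 and 141 FPKM with CBD, the smallest CBD ratio (0.01) among genes at 10 FPKM or more in every column. With 4-OHT it fell from 339 to 254 FPKM (−0.42, the authors' deposited table has q = 1.08e-10). Both 4-OHT table values lie above both CBD table values, and 254 FPKM is 0.87 log2 units above the other control. Eif2s1, the alpha subunit phosphorylated under stress, stood at 97.2 and 103, and 112 and 107 FPKM. Eif2s2, the beta subunit, stood at 251 and 213, and 164 and 171 FPKM. Neither of these passed, nor did Eif2a, an alternative carrier of initiator tRNA, at 102 and 85.8 and at 71.4 and 75.6 FPKM. Eif2d was not found under that symbol.

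The exchange factor eIF2B fell with 4-OHT in 3 of its 5 genes. Eif2b1, of the alpha subunit, stood at 55.2 and 46.3 FPKM with CBD and fell from 98.4 to 75.5 FPKM with 4-OHT (−0.38, the authors' deposited table has q = 8.53e-10). Eif2b4, of the delta subunit, stood at 39.9 and 44.2 FPKM with CBD and fell from 81.04 to 65.2 FPKM (−0.31, the authors' deposited table has q = 2.43e-07). Eif2b3, of the gamma subunit, stood at 34.1 and 26.6 FPKM with CBD and fell from 59.7 to 49.4 FPKM (−0.27, the authors' deposited table has q = 5.18e-05). All 3 genes are nevertheless higher in both columns of the 4-OHT table than in either column of the CBD table. Eif2b5, the catalytic epsilon subunit, stood at 51.9 and 57.1, and at 74.01 and 67.6 FPKM (the authors' deposited table has q = 0.0534 with 4-OHT). Eif2b2, the beta subunit, stood at 52.7 and 77.04, and at 56.1 and 58.8 FPKM. The median log2 ratio of the 5 genes with 4-OHT was −0.27 over their own control and 0.45 over the other.

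Both eIF5A genes fell with 4-OHT, where 16.9% of all tested genes fell. Eif5a encodes the abundant hypusine-carrying factor that helps ribosomes through difficult peptide bonds. Its CBD table levels were 1608 and 1739.7 FPKM, where its test is marked failed, and it fell from 2265 to 1896 FPKM with 4-OHT (−0.26; the authors' deposited table lists q as 0). Over the other control that value is higher, at 0.24. Eif5a2, its rarer relative, stood at 3.13 and 4.72 FPKM with CBD and fell from 9.36 to 8.005 FPKM with 4-OHT (−0.22, the authors' deposited table has q = 0.00359). Eif5a2 has the largest gap between the control columns of the 52 factor genes at 1 FPKM or more in both, 1.55 log2 units, and both values of the 4-OHT table lie above the other control. Eif5a was 514 times as high as Eif5a2 in the CBD table's control and 369 times with CBD, and 242 and 237 times in the 4-OHT table.

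Of the 5 tested genes of eEF1A and its exchange complex, 1 rose with CBD. Eef1a2 encodes the eEF1A form known from neurons and muscle and lies on chromosome 2 from 180882397 to 180891720 in mm9. It stood at 0.0606 FPKM in the control and 17.9 FPKM with CBD, and is listed at 0 in both columns of the 4-OHT table. The rise had a log2 ratio of 6.80, or 4.15 with 1 FPKM added, and the authors' deposited table lists its q as 0. The neuronal markers given above moved with it. Of these, Snap25 stood at 0.0697 and 36.7 FPKM and Nefl at 0.0488 and 14.8 FPKM in the same columns, and the median of the 12 was 0.0532 and 11.3 FPKM. For 9 skeletal and heart muscle markers the sum was 22.3 in the control and 24.97 FPKM with CBD, 2 were tested and 0 rose, and 6 were at 0 in the control and 1 with CBD. The part of other cells in the rise of Eef1a2, and in that of Eif4e3, was not tested.

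The other 4 tested genes did not pass with CBD. Eef1b2, the catalytic exchange subunit, stood at 447 and 747 FPKM with CBD (0.74, the authors' deposited table has q = 0.247). With 4-OHT it rose from 354 to 410.3 FPKM (0.21, the authors' deposited table has q = 0.00131), which is below the 447 FPKM of the other control. Eef1d, a further exchange subunit, stood at 209.8 and 260.5, and at 246 and 229 FPKM. Eef1g, the structural subunit, stood at 917 and 1238, and at 793 and 821 FPKM. Eef1e1 encodes a small scaffold of the multi-tRNA synthetase complex. It stood with CBD at 81.02 and 82.6 FPKM and fell with 4-OHT from 153 to 126 FPKM (−0.28, the authors' deposited table has q = 1.7e-05), a value between the control columns. Eef1a1 itself stood at 6029.8 and 6775 FPKM in the 4-OHT table (0.17, the authors' deposited table has q = 0.0723).

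Eef2, the translocase, stood at 1667 and 1423 FPKM with CBD and at 959 and 1072 FPKM with 4-OHT, and passed neither test (−0.23 and 0.16). The control columns of Eef2 differ by 0.80 log2 units, more than either treated column differs from its own control. Eef2k, the kinase that inhibits eEF2, stood at 107 and 82.9 FPKM with CBD (−0.37, the authors' deposited table has q = 0.277). With 4-OHT it fell from 88.9 to 79.6 FPKM (−0.16, the authors' deposited table has q = 0.0147), below both control columns.

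Several of these mRNAs are known to begin with a terminal oligopyrimidine tract, a run of pyrimidines through which mTOR governs their translation. The 9 listed are Eef1a1, Eef1b2, Eef1d, Eef1g, Eef2, Eif3e, Eif3f, Eif3h and Eif4b. With CBD 0 of 8 tested rose and 1 fell, Eif4b, with a median log2 ratio of 0.25. With 4-OHT 2 of 9 rose, Eef1b2 and Eif3h, and 0 fell, where 25.9% of all tested genes at that level rose and 22.0% fell. In all, 8 of 9 stood above 0 with 4-OHT, where 3155 of all 6054 tested genes at that level did. Their median was 0.10, or −0.25 over the other control for the 8 without Eef1a1. A pyrimidine run of at least 5 bases that starts with C within 5 bases of the start was looked for in the RefSeq windows. It was found at 10 of 60 starts (16.7%) of the 45 factor genes with a window, and at 17.1% of all 32851 starts. Most of these 45 are outside the 9 listed, and Eef1d, Eef1g, Eif3e and Eif3h had no window. The share thus does not tell whether the 9 carry the tract.

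Of the Argonaute genes, Eif2c2 was lower with both treatments. Eif2c2 encodes AGO2, the slicing Argonaute, and stood at 55.4 and 25.6 FPKM with CBD and at 54.05 and 39.6 FPKM with 4-OHT. Its control columns nearly coincide, and both treated values lie below both of them. The falls had log2 ratios of −1.11 and −0.45 (q = 6.96e-05 and 3.4e-14 by the authors' deposited table), and it was the only one of the 57 genes to fall in both. Eif2c1 stood at 19.6 and 13.2, and at 24.1 and 23.8 FPKM, and Eif2c3 at 2.67 and 2.003, and at 1.98 and 2.05 FPKM. Eif2c4 stood at 0.221 and 0.5603, and at 0.05701 and 0.123 FPKM.

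Transcript length ran with the CBD ratios. Lengths are those of the principal transcript in GENCODE vM21. Across the 53 tested genes the log2 ratio with CBD declined with length (Spearman rho −0.45; −0.44 across 5861 tested genes at 10 FPKM or more in each control column). These are correlations across genes of the same libraries, which are not independent replicates. Of 19 genes under 2000 nt 0 fell and 6 stood below their control, of 20 from 2000 to under 4000 nt 1 fell (Eif4b) and 9 stood below, and of 14 at 4000 nt or more 5 fell and 10 stood below. The median log2 ratio of these classes was 0.20, 0.02 and −0.38. With 4-OHT the corresponding rho was −0.12 across 53 genes and −0.08 across 5993.

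The median ratio of all genes with CBD went from 0.54 in the shortest to −0.75 in the longest of 20 length bins, and the fallers were compared with it. Relative to the trend at its length, Eif3a (5125 nt) stood at −1.29 log2 units and Eif4b (3854 nt) at −0.86. Eif4g3 (6139 nt) stood at −0.74, Eif5b (7797 nt) at −0.69, Eif4g1 (5638 nt) at −0.63 and Eif2c2 (13800 nt), which is beyond the longest bin and was set against that bin's median, at −0.36. Set against a trend by longest transcript, Eif3a stood at −1.36, Eif4b at −0.91, Eif5b at −0.75, Eif4g1 at −0.67, Eif4g3 at −0.47 and Eif2c2 at −0.37. All 6 lay below the trend, by less than they lay below their control. Both were fixed in advance, since each fell by at least 2-fold and the trend at these lengths is negative, reaching −0.75 at the lowest. Eif4enif1, whose CBD test is marked failed, stood at −0.95. Eef1a2 (2084 nt) stood 6.74 above the trend and Eif4e2 (1807 nt) 0.12 above it, or 0.39 by its longest transcript. The part of length in the falls was not tested. Eif4g2 has an uncertain place, at −0.73 by its principal transcript of 742 nt and 0.43 by its longest.

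**Figure D4:**
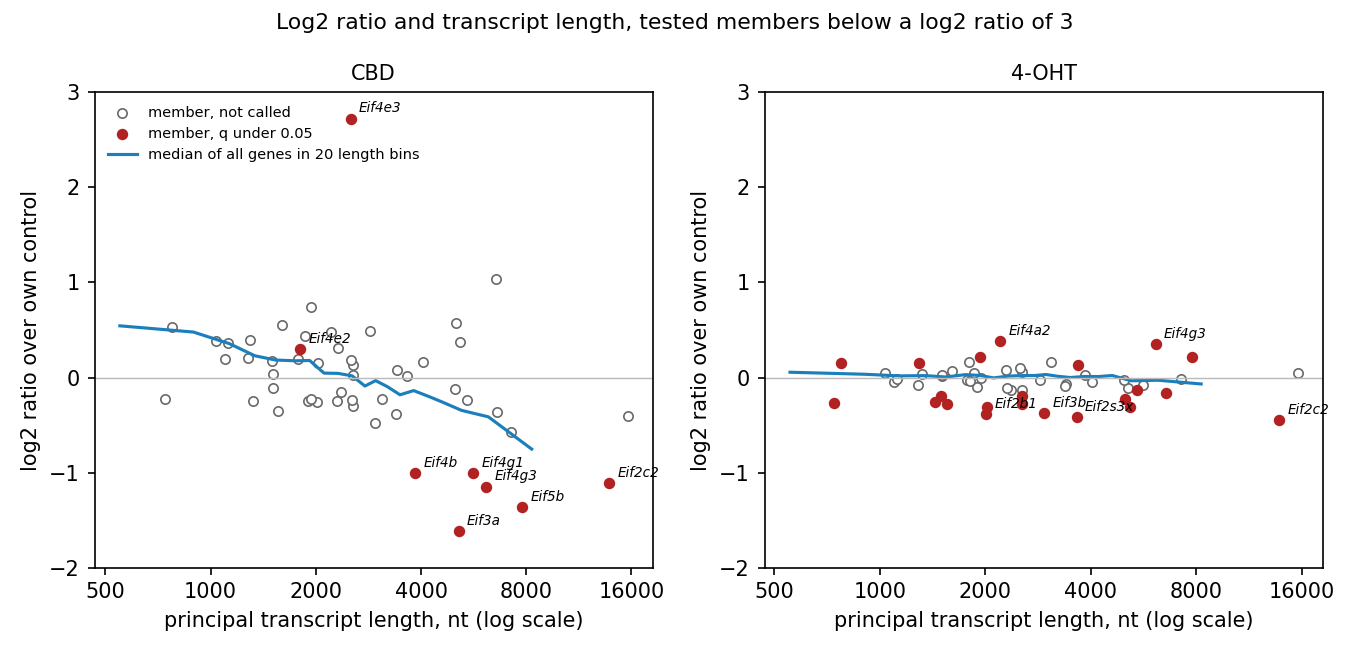
Log2 ratio over the own control against principal transcript length (nt, log scale) for tested genes, red where the authors' deposited table has q under 0.05, with the median of all genes in 20 length bins as a line; Eef1a2, at 6.80 with CBD, lies outside the range shown. With CBD the genes and the line descend with length, 5 of the 6 fallers lie under the line and Eif2c2 lies beyond its end, while with 4-OHT the line stays between 0.06 and −0.07.

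The control columns set a scale for the 4-OHT differences. Of the 52 genes at 1 FPKM or more in each control column, 11 differed between them by 1.5-fold or more (27.1% of 9716 genes at that level did), and 32 were higher in the 4-OHT table's control. The median absolute log2 ratio between the controls was 0.34 (0.35 for all genes at that level), against 0.30 for CBD and 0.11 for 4-OHT over their own control. The difference between controls exceeded that of 4-OHT in 42 of the 52 genes and that of CBD in 27. The 4-OHT value lay between the control columns in 37 and the CBD value in 19. These counts were not made over all genes, so they are not read as particular to these genes. The tables were made separately, so a difference between their control columns has no test, and how much of it is processing and how much the samples cannot be told apart.

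Genes around this machinery were read from lists of regulators, release factors, modifying enzymes, mitochondrial factors and tRNA synthetases. Their counts stand beside the shares of all tested genes, 18.4% higher and 7.74% lower with CBD and 27.2% and 16.9% with 4-OHT. At 10 FPKM or more in each control column these shares were 11.4% and 14.9% with CBD, and 25.9% and 22.0% with 4-OHT. Of 20 regulators of initiation 1 rose and 4 fell with CBD, with a median log2 ratio of −0.43, or −0.14 after the length trend. With 4-OHT 8 rose and 3 fell (median 0.05). Larp1, which binds terminal oligopyrimidine mRNAs, fell with CBD from 75.96 to 18.8 FPKM (the authors' deposited table has q = 1.09e-13), and with 4-OHT from 102 to 86.1 FPKM. Ppp1r15a, whose product directs dephosphorylation of eIF2 alpha, fell with CBD from 92.1 to 54.1 FPKM and rose with 4-OHT from 15.4 to 21.96 FPKM (the authors' deposited table has q = 0.0123 and 2.08e-11). The control columns of Ppp1r15a lie further apart than either treated column is from its own control. Paip2, an inhibitor of poly(A)-binding protein, rose with CBD from 90.99 to 148 FPKM and with 4-OHT from 65.8 to 77.5 FPKM. Eif2ak4, which encodes the amino-acid-sensing kinase GCN2, rose with 4-OHT from 9.09 to 12.2 FPKM, which is above both control columns. Pdcd4, an inhibitor of eIF4A, rose with 4-OHT from 45.7 to 60.3 FPKM and fell with CBD from 120 to 86.9 FPKM, and its control columns too lie further apart than either treated column is from its own.

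Of 9 release, recycling and reinitiation genes, 1 of 9 tested fell with CBD: Gspt1, of the release factor eRF3, from 44.6 to 33.3 FPKM. With 4-OHT 1 of 8 rose and 4 fell, among them Gspt1 from 57.8 to 51.9 FPKM and Denr from 81.4 to 63.9 FPKM, while its partner Mcts1 rose from 45.1 to 56.3 FPKM. Etf1, of the release factor eRF1, fell with 4-OHT from 104 to 90.6 FPKM. The 7 listed enzymes of hypusine and diphthamide, the modified residues of eIF5A and eEF2, passed no CBD test. Their median was 0.19, or −0.04 after the length trend. With 4-OHT Dhps, which starts hypusine synthesis, rose from 16.6 to 19.4 FPKM, and Dph3, of diphthamide synthesis, fell from 20.9 to 15.1 FPKM.

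Of 8 tested mitochondrial translation factors 1 fell with CBD, Gfm1, the mitochondrial elongation factor G, from 80.4 to 51.8 FPKM. With 4-OHT 1 of 9 rose, Mtrf1l from 2.54 to 3.38 FPKM, and 1 fell, Mrrf from 15.7 to 12.8 FPKM. Of 22 tRNA synthetase genes and their scaffolds 0 rose and 3 fell with CBD (median −0.25, or −0.28 after the length trend). These 3 were Vars from 269 to 146 FPKM, Kars from 255 to 191 and Nars from 263 to 208. With 4-OHT 10 of 22 rose and 2 fell (median 0.04). Vars rose from 198 to 249.7 FPKM and Qars from 71.7 to 85.6 FPKM, and Eprs fell from 145 to 123 FPKM. Kars and Nars rose as well, from 255 to 276 and from 157 to 164 FPKM. Among the genes named from these lists, the treated values of Ppp1r15a, Pdcd4 and Nars with both treatments, and of Larp1, Paip2, Gspt1, Denr, Dph3, Vars and Qars with 4-OHT, lie between the control columns.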

How the data were processed

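RNA from 6 samples (2 control, 2 CBD, 2 4-OHT) was extracted with a column kit and made into standard Illumina libraries, per the labels. Per the submitters' processing notes, the authors used Bowtie 0.12.2, mm9 and Cuffdiff. The annotation and the Cuffdiff version and settings were not given in the sources used here. The authors deposited FPKM values, 1 per group and table. The p-value and q-value columns are the authors' deposited Cuffdiff results; q recomputed from p over tested genes differed by at most 1.52e-06. The deposited log2 column holds placeholder values and was not used. Values per library and their depth were not analysed here, so no replicate test, SD or interval could be made, and with replicates not known to be separate cultures the deposited p may measure technical spread.

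A gene was called at a deposited q under 0.05, in the direction of its log2 ratio (0.1 FPKM added). Lists were summarised by counts and medians, with no test. Lengths are GENCODE vM21 transcripts, found for 97.9% of genes by symbol and for all 57 genes described. The length trend is the median ratio in 20 bins over genes at 10 FPKM or more in each control column, and its removal was tested on simulated data. Positions are the tables' mm9 loci with 1 added to the start. Promoter sequences are from RefSeq, GRCm38.p6. Genes given with all their values were those not tested or at 0, the 10 called genes with the largest and 5 with the smallest ratio in each comparison, paralogue pairs, the Eif4e and Eif4g families, genes called in both comparisons and the extremes of each role, and the remaining genes are added for completeness; of other lists, up to 3 called genes were named. Annotated pseudogene copies of Eef1a1, Eif1, Eif3e, Eif5a and Eif2s3x make their counting uncertain. The genes, lists and rules were chosen with earlier results of these data known. Alternatives were another q threshold, a 2-fold minimum, a level minimum, other pseudocounts, the other control column, centring on all genes, leaving out the Argonaute genes and removing the length trend; the last, for counts and single genes, was chosen after seeing the data. Python 3.11.15, pandas 2.3.3, NumPy 2.4.6, SciPy 1.17.1 and matplotlib 3.10.9 were used.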

Additional observations from a re-analysis of the deposited data

How the results depend on the processing

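No paired analysis was possible because each table holds 1 value per group, and for the same reason no replicate could be left out in turn. The 3 rises with CBD became 1 at a q under 0.01 (Eef1a2) and 1 over those at 1 FPKM or more in each control column (Eif4e2), and the 6 falls kept within 1.5 times their number under every alternative run. For the length trend, centring and the other control column the deposited q was kept, so these counts check direction only. After the trend by principal transcripts the 6 ratios ran from −1.29 (Eif3a) to −0.36 (Eif2c2). With 4-OHT the 7 rises and 15 falls became 0 and 0 with a 2-fold minimum, and 4 and 5 on the same side of the other control column. Removing the length trend or centring on all genes changed the direction of 0 of the 31 called ratios, while the other control column reversed 14. The median with CBD (0.0283) was −0.0501 at 1 FPKM or more in both controls, 0.0421 without the Argonaute genes, −0.1246 over the other control, −0.1636 after centring, and 0.0162 or 0.0172 after removing the length trend with principal or longest transcripts. That with 4-OHT (−0.0401) was 0.1231 over the other control, −0.0840 after centring, and −0.0549 or −0.0545 after the trend. Reversed over the other control were Eif4e2 with CBD (−0.4583) and, with 4-OHT, Eif3k (−0.1098), Eef1b2 (−0.1250), Eif3h (−0.2682), Eif3b (0.4942), Eif1ax (0.3221), Eif5a2 (1.3273), Eif2b3 (0.5345), Eif2b1 (0.4502), Eif2b4 (0.7082), Eif4g2 (0.0162), Eef1e1 (0.6363), Eif2s3x (0.8665) and Eif5a (0.2379); the cause was not tested. Single values per group, an unknown depth and separately made tables limit every comparison, and FPKM says nothing of protein or of translation itself.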
